A study of Homo sapiens with 2 samples.

Results

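To describe RAS pathway genes in precursor B-cell leukemia, the levels of 9 genes were taken from RNA sequencing of the cell lines REH and 697. The set was given as a list of symbols and holds the RAS genes NRAS and HRAS, the RAS regulators NF1 and PTPN11, the kinase gene BRAF, and the feedback regulators SPRY1, SPRY2, SPRED1 and DUSP6. All 9 were found among the 57773 gene IDs of the files, and all 9 had at least 10 reads in a library, the minimum for a gene to be compared, as did 19145 genes in total. In REH the ETV6/RUNX1 fusion is present and the remaining ETV6 allele is deleted, whereas 697 is an established line without that fusion. Both are labelled B-ALL and were grown untreated in the same serum-supplemented medium, and each line was sequenced as 1 library. The spread within a line is therefore unknown, no test between the lines was possible, and each difference is one between these libraries. Any line also stands for 1 leukemia only.

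RAS proteins are small GTPases that carry signals from receptors at the cell surface into the cell. Exchange factors load them with GTP, GTPase-activating proteins such as neurofibromin (NF1) return them to the inactive state, and active RAS recruits RAF kinases, which pass the signal through MEK to ERK. ERK activity in turn raises the transcription of its own inhibitors, among them the Sprouty and SPRED proteins and the ERK phosphatase DUSP6. Mutations in genes of this pathway are frequent in precursor B-cell leukemia. Read counts per gene show the amount of transcript and carry no information on mutations or on protein activity.

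The REH library held 45188375 reads in genes (70.7% of its reads) and the 697 library 41097497 (69.7%). Levels are given as CPM, the read count relative to the library total after scaling by TMM, a correction for library composition, and 3 reads, taken as the smallest detectable count, correspond to 0.0597 CPM in REH and 0.0812 CPM in 697. Intervals are 95% intervals that cover counting error only, exact Poisson for levels, exact Clopper-Pearson for ratios and Wilson for shares. Of 8 precursor B-cell markers, 7 had at least 10 reads in REH and all 8 in 697, the exception being VPREB1, a surrogate light chain gene, with 3 and 10039 reads. T-cell markers summed to 0.935 CPM in REH and 0.0271 CPM in 697 over 4 genes, with CD3D and CD2 at 0 in both libraries. CD3E had 45 reads in REH and 0 in 697, and CD3G had 2 and 1. Myeloid markers summed to 253 CPM in REH and 2.25 CPM in 697 over 4 genes, and nearly all of the former was MPO (12643 and 12 reads). LYZ had 1 and 2 reads, CD14 had 29 and 8, and CSF1R, with 30 and 61, was higher in 697. The part of these marker differences in the values below was not tested.

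The gene with the clearest difference was SPRED1, which encodes a membrane-associated inhibitor of RAS signaling that brings neurofibromin to RAS. SPRED1 had 0 reads in REH and 1486 reads, or 40.2 CPM (38.2 to 42.3), in 697. Against the limit of 3 reads, its level was at least 674-fold higher in 697, a log2 ratio (REH over 697) of -9.40 or below. The exact interval of the ratio reached -9.10, somewhat short of this bound. DUSP6, the phosphatase that acts on ERK in the cytoplasm, had 21239 reads or 423 CPM (417 to 428) in REH and 6285 reads or 170 CPM (166 to 174) in 697. Its level was 2.48-fold higher in REH, with a log2 ratio of 1.31 (1.27 to 1.35). A lncRNA annotated on the opposite strand shares 1105 bases of exon with DUSP6, and its reads there could not be told apart from those of DUSP6 in these libraries. No DUSP6 reads were left out for this overlap, so any such reads are part of the DUSP6 count. The other 7 genes differed by less than a log2 ratio of 1, that is, by less than 2-fold.

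The promoters of these genes, which stand at opposite ends of the set, are shown so that their starts can be located. SPRED1 lies on the forward strand of chromosome 15 (38252836 to 38357249, GRCh38) and DUSP6 on the reverse strand of chromosome 12 (89347235 to 89352501). The sequences are the 250 bases before the RefSeq start (GRCh38.p14), from 5′ to 3′ on the strand of the gene, at chr15:38252586-38252835 for SPRED1 and chr12:89352502-89352751 for DUSP6, with each CpG in capitals.
SPRED1: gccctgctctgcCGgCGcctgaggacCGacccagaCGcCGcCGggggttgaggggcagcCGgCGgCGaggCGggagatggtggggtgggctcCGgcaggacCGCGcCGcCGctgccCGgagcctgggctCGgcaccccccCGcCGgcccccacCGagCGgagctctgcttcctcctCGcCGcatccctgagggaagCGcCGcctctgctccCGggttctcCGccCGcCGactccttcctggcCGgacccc
DUSP6: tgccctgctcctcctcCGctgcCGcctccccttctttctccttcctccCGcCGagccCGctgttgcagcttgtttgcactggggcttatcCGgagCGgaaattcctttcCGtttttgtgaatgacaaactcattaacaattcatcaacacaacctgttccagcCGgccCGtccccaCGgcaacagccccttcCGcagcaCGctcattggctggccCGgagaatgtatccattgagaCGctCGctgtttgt
The SPRED1 stretch held 30 CpGs and the DUSP6 stretch 16, against a median of 11 over 35116 RefSeq promoter windows of this length, and 87.6% of the windows held fewer CpGs than that of SPRED1. Neither stretch held CCGGAAG, a form of the site bound by ETS factors, on either strand, while 8.52% of all windows did. Nor did they hold TGTGGT, a form of the site bound by RUNX factors, against 11% of all windows. This says only that these exact letters are not in these windows. Other forms of the sites were not searched, and neither methylation nor factor binding was measured here. Of the other members, NRAS, HRAS, NF1 and BRAF matched a window each and held 20, 32, 25 and 14 CpGs. Of these windows, that of HRAS held CCGGAAG once, and none held TGTGGT. SPRY1 and SPRY2 matched several windows each and were not counted, and PTPN11 had no entry.

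**Figure D1:**
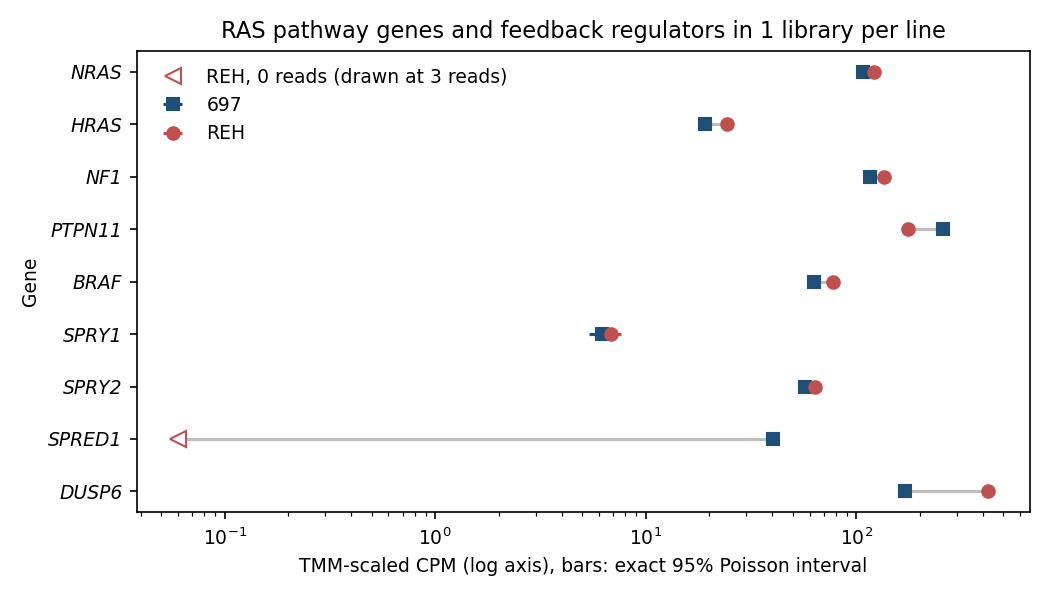
Levels of the 9 genes in TMM-scaled CPM on a log axis, with REH as red circles, 697 as blue squares and bars for the exact 95% Poisson interval. The symbols lie close together for 7 genes, DUSP6 is higher in REH (423 against 170 CPM), and SPRED1, with 0 reads in REH, is drawn there at 3 reads.

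At the level of RAS itself, both genes were slightly higher in REH. NRAS (chromosome 1, 114704469 to 114716771), which encodes one of the RAS GTPases mutated in leukemia, had 6146 reads or 122 CPM (119 to 125) in REH and 3985 reads or 108 CPM (105 to 111) in 697. The log2 ratio was 0.18 (0.12 to 0.24), and 85.3% of all genes compared had a larger ratio in size. HRAS (chromosome 11, 532242 to 537321) had 1217 reads or 24.2 CPM (22.9 to 25.6) in REH and 705 reads or 19.1 CPM (17.7 to 20.5) in 697, a log2 ratio of 0.34 (0.21 to 0.48). Both ratios exceeded counting error but were small against the differences among all genes. The share of each gene in the reads of this pair is free of any scaling between libraries. NRAS took 83.5% of these reads in REH (82.6% to 84.3%) and 85% in 697 (83.9% to 86%). These shares depend on transcript length, as the canonical transcript of NRAS is longer than that of HRAS (4.33 against 1.07 kb). Per kb of these transcripts, the share of NRAS was 55.5% in REH and 58.3% in 697. With the length of all annotated exons, which is 2.43 kb for HRAS and unchanged for NRAS, the share of NRAS would be larger.

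The regulators of RAS differed in opposite directions. NF1 (chromosome 17, 31094927 to 31382116), whose product switches RAS off, had 6768 reads or 135 CPM (131 to 138) in REH and 4280 reads or 116 CPM (112 to 119) in 697, a log2 ratio of 0.22 (0.16 to 0.27). PTPN11 (chromosome 12, 112418351 to 112509918), which encodes the phosphatase SHP2 that is needed for full RAS activation by receptors, had 8883 reads or 177 CPM (173 to 180) in REH and 9581 reads or 259 CPM (254 to 265) in 697. Apart from SPRED1, it was the only member with a higher level in 697, by 1.47-fold, and its log2 ratio was -0.55 (-0.60 to -0.51). Within a library, there were 1.45 PTPN11 reads per NRAS read in REH and 2.4 in 697, whereas NF1 and NRAS kept nearly the same proportion (1.1 and 1.07). Among the gene IDs of the files, 8 NF1 pseudogenes held 0 reads in both libraries and 5 PTPN11 pseudogenes held 30 reads in REH and 22 in 697, and reads that match a gene and its copies equally were not counted.

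BRAF (chromosome 7, 140719327 to 140924929), a kinase that active RAS recruits, had 3896 reads or 77.5 CPM (75.1 to 80) in REH and 2323 reads or 62.9 CPM (60.3 to 65.5) in 697. Its log2 ratio was 0.30 (0.23 to 0.38). BRAF shares 1239 bases of annotated exon with NDUFB2 on the opposite strand. Reads in such a stretch are left out as ambiguous when strands are pooled, and counting the strands separately would add 663 reads in REH and 346 in 697. Since 50.1% of the strand-assigned reads of REH and 50.2% of those of 697 matched the gene's strand, the libraries held no strand information, so these reads could not be divided between the genes. For NF1, 608 and 514 reads were left out in this way, and for the other members at most 1.

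Of the Sprouty genes, whose products inhibit the pathway upstream of ERK, SPRY1 and SPRY2 hardly differed between the libraries. SPRY2 (chromosome 13, 80335976 to 80341126) had 3196 reads or 63.6 CPM (61.4 to 65.8) in REH and 2115 reads or 57.2 CPM (54.8 to 59.7) in 697, a log2 ratio of 0.15 (0.07 to 0.23). SPRY1 (chromosome 4, 123396795 to 123403760) had 344 reads or 6.84 CPM (6.14 to 7.61) in REH and 228 reads or 6.17 CPM (5.4 to 7.03) in 697. The interval of its log2 ratio of 0.15 included 0 (-0.10 to 0.40), and the same-strand reads alone gave -0.06, the opposite-strand reads 0.41. The proportion of SPRY2 to SPRY1 reads was 9.29 in REH and 9.28 in 697. The gene of this family that differed was SPRY4, no member of the set, with 3267 and 965 reads and a log2 ratio of 1.31 (1.21 to 1.42), close to that of DUSP6. SPRY4 therefore took 46.8% of the Sprouty reads in REH (45.6% to 48%) and 27.8% in 697 (26.3% to 29.3%), while the share of SPRY2 was 45.8% (44.6% to 47%) and 60.9% (59.3% to 62.5%). The canonical transcript of SPRY4 is longer (4.90 against 2.29 kb). Per kb, the share of SPRY4 was 30.1% in REH and 16% in 697, and that of SPRY2 63.1% and 75.4%. SPRY3 had 174 and 163 reads and lies in a region shared by the sex chromosomes, so its count is uncertain.

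The SPRED family differed in makeup between the libraries. SPRED2, a close relative of SPRED1, had 3022 reads or 60.1 CPM in REH and 2061 reads or 55.8 CPM in 697, with a log2 ratio of 0.11 (0.03 to 0.19). It made up 98.1% of SPRED reads in REH (97.6% to 98.5%) and 57.9% in 697 (56.3% to 59.5%). The share of SPRED1 was 41.8% in 697 (40.1% to 43.4%), against 0 of 3080 reads in REH, where 3 reads would be a share of 0.0974% and the Wilson interval reached 0.125%. SPRED3 had 58 reads in REH and 12 in 697. The level of SPRED2 thus differed little between these libraries, and any link to the absence of SPRED1 reads in REH was not tested.

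To see how far the absence of reads in REH reached around SPRED1, the 6 nearest protein-coding genes on either side were examined. FAM98B, 96.9 kb beyond the end of SPRED1, had 3874 reads in REH and 3049 in 697, a log2 ratio of -0.10 (-0.17 to -0.03). RASGRP1, an exchange factor that activates RAS in lymphocytes, lies 130.9 kb beyond SPRED1 and had 1585 and 1807 reads, a log2 ratio of -0.63 (-0.73 to -0.54). On the other side TMCO5A, at 285.1 kb, had 0 reads in both libraries, and the next gene, MEIS2 at 1151.5 kb, had 1 read in REH and 170 in 697. CDIN1, at 1442.6 kb, was read in both libraries (603 and 322 reads). Reads in REH were thus found for the nearest gene after SPRED1. On the other side, the protein-coding genes between SPRED1 and CDIN1, TMCO5A and MEIS2, held 1 read between them in REH. TMCO5A had 0 reads in 697 as well. Among the genes after SPRED1, GPR176, at 1441.8 kb, had the largest ratio in size. It was lower in REH (900 and 5549 reads, log2 ratio -3.07, -3.17 to -2.97). Whether the SPRED1 gene is intact in REH cannot be read from these counts.

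**Figure D2:**
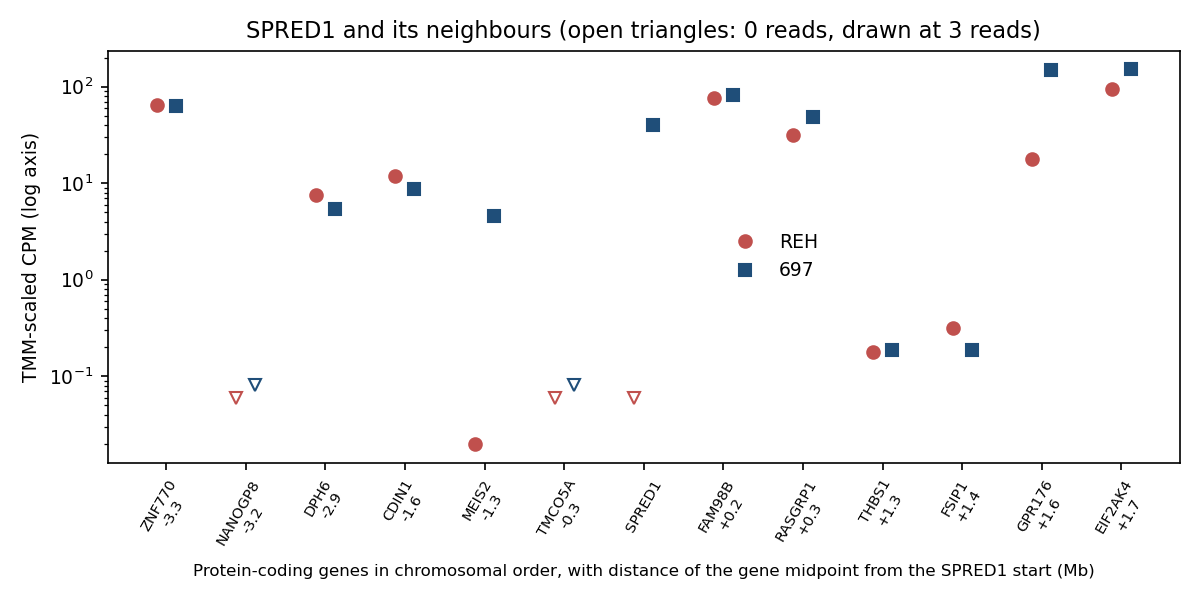
Levels of SPRED1 and 12 neighbouring protein-coding genes in TMM-scaled CPM on a log axis, in chromosomal order and labelled with the distance of the gene midpoint from the SPRED1 start in Mb, with REH as red circles and 697 as blue squares. Open triangles mark 0 reads, drawn at 3 reads, so the single read of MEIS2 in REH appears below them. FAM98B (77.1 and 82.5 CPM) and RASGRP1 (31.5 and 48.9 CPM) were read in both libraries.

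The ERK phosphatases also differed in makeup. DUSP6 held 92% of the reads of 5 such genes in REH (91.6% to 92.3%) and 60.4% in 697 (59.4% to 61.3%). DUSP4, which acts on ERK in the nucleus, had 142 reads or 2.82 CPM in REH and 2545 reads or 68.9 CPM in 697, so it was 24.3-fold higher in 697 (log2 ratio -4.60, -4.86 to -4.36). DUSP9 had 0 reads in REH and 430 in 697, at least 195-fold higher in 697 against the limit of 3 reads. Its exact interval reached a log2 ratio of -7.30. In REH 150 DUSP6 reads were counted per DUSP4 read, against 2.47 in 697. DUSP7 was similar in both (1714 and 1149 reads, log2 ratio 0.13, 0.02 to 0.24), and DUSP5 had 0 reads in both.

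**Figure D3:**
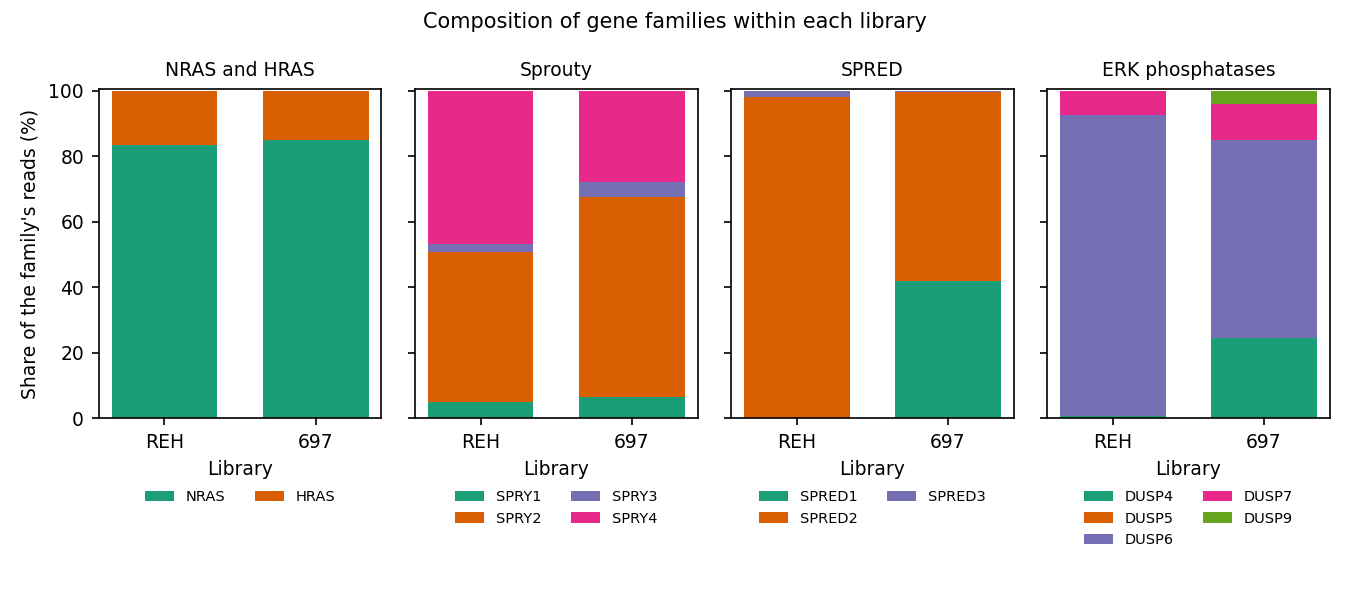
Share of each gene in the reads of its family (%), with a stacked bar for each library. NRAS and HRAS had a similar makeup in REH and 697, whereas SPRED1 (41.8% of SPRED reads) and DUSP4 (24.4% of ERK phosphatase reads) took a large part in 697 and 0% and 0.615% in REH. The shares are not adjusted for transcript length, and per kb SPRED1 took 30.8% and DUSP4 16.9% in 697.

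Levels of different genes were compared as CPM per kb of the canonical GENCODE 44 transcript. In REH, DUSP6 led with 116 CPM per kb (115 to 118), followed by PTPN11 at 29.1 (28.5 to 29.7), NRAS at 28.3 (27.6 to 29) and SPRY2 at 27.8 (26.9 to 28.8), and these last 3 had overlapping intervals. HRAS came next at 22.6 CPM per kb (21.4 to 23.9), then BRAF at 12 (11.6 to 12.4), NF1 at 10.9 (10.6 to 11.1) and SPRY1 at 2.63 (2.36 to 2.92). In 697 the order began with DUSP6 at 46.9 CPM per kb (45.7 to 48.1) and PTPN11 at 42.7 (41.9 to 43.6). SPRY2 at 25 (24 to 26.1) and NRAS at 24.9 (24.2 to 25.7) overlapped, as did BRAF at 9.73 (9.34 to 10.1) and NF1 at 9.36 (9.08 to 9.65), with HRAS between these pairs at 17.8 (16.5 to 19.2). SPRED1, at 5.53 CPM per kb (5.25 to 5.82), stood above SPRY1 at 2.37 (2.07 to 2.7) in that library. These levels and their order depended on the length used. With the length of all annotated exons, DUSP6 stayed first (109 CPM per kb in REH and 44.1 in 697) and SPRY1 last among the genes read in a library (1.73 and 1.56), and NRAS, whose length was the same, came next after DUSP6 in both. PTPN11 fell to 13.1 CPM per kb in REH, below SPRY2 (19.8), and to 19.3 in 697, below NRAS. HRAS fell to 9.96 and 7.85, BRAF to 3.31 and 2.68 and NF1 to 3.27 and 2.82 CPM per kb, so that in 697 SPRED1 (5.19) stood above NF1 and BRAF.

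With the threshold for a difference at 2 on the log2 scale, in either direction, 1 of the 9 genes was higher in 697 (SPRED1, 11.1%) and 0 were higher in REH, while of all genes compared 20.7% passed, 8.15% as higher in 697 and 12.5% as higher in REH. With a threshold of 1, DUSP6 was added as higher in REH, so that 11.1% of the members lay in each direction, against 22.4% of all genes in REH and 17.4% in 697 (39.8% together). The remaining 7 members (77.8%) and 11516 of all genes (60.2%) differed by less. The median log2 ratio of the set was 0.18, against 0.05 over all genes, and 7 of its ratios were above 0 and 2 below. The shares of the members past a threshold were thus near or under those of all genes. Without TMM scaling every log2 ratio rose by 0.31, which left PTPN11 at -0.25 and NRAS at 0.49, so that the small ratios have an uncertain size, whereas the order of the members is unaffected.

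Other genes of the pathway were examined by role, from lists of 54 genes of which 51 were compared. Past the threshold of 2, 4 were higher in REH (7.84%) and 2 in 697 (3.92%), below the 12.5% and 8.15% of all genes, and the median log2 ratio of the 51 was 0.11. None of the 8 compared genes of RAF, MEK and ERK kinases and their scaffolds differed by a log2 ratio of 1, against 39.8% of all genes. The largest ratio was that of KSR1, a scaffold for RAF and MEK (1710 and 747 reads, 0.75, 0.63 to 0.88, but 1.06 without TMM scaling). Of 10 adaptors and exchange factors, 3 were higher in REH by at least a log2 ratio of 1 (30%) and 0 in 697, against 22.4% and 17.4% of all genes. The adaptor GAB2, which binds SHP2, had 13492 reads in REH and 4169 in 697 (1.25, 1.20 to 1.30). Also counted were RASGRP3 (61 and 16 reads, 0.67 to 2.38) and RASGRP4 (34 and 6 reads, 0.79 to 3.60). Both are named after their values were seen, are low in reads and have intervals that reach below 1. RAS GTPase-activating proteins went both ways, with 3 of 9 higher in REH (33.3%) and 2 higher in 697 (22.2%) at a log2 ratio of 1, not far from those shares of all genes. Among these, RASAL2 had 425 and 1101 reads (-1.82, -1.98 to -1.65). Of the other RAS-like GTPases, MRAS was low in both libraries (115 and 28 reads, 1.57, 0.99 to 2.25). In the comparison list of JNK and p38 phosphatases, 0 of 4 passed the threshold of 2, against 20.7% of all genes. At a log2 ratio of 1, 0 were higher in REH and 2 in 697 (50%, against 17.4% of all genes). DUSP16, with the largest ratio in size of this list, had 562 and 1032 reads (-1.32, -1.47 to -1.17).

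Transcripts that respond to ERK activity were not uniformly higher in either library. Of 10 such genes, 4 were higher in REH past the threshold of 2 (40%, against 12.5% of all genes) and 0 in 697 (8.15% of all genes), and their median log2 ratio was -0.01, against 0.05 over all genes. ETV4, an ETS transcription factor, had 3494 reads or 69.5 CPM in REH and 134 reads or 3.63 CPM in 697, 19.1-fold higher in REH (log2 ratio 4.26, 4.01 to 4.52). EPHA2, a receptor tyrosine kinase, had 165 reads in REH and 0 in 697, at least 40.4-fold higher in REH against the limit of 3 reads. Its exact interval reached down to a log2 ratio of 5.02. CCND1, the gene of cyclin D1, had 105 and 8 reads (log2 ratio 3.19, 2.24 to 4.52), and its ratio fell to 1.93 and 1.54 in the separate strand columns. The fourth was EPHA4, which is named here after its values were seen, with 29 reads in REH and 0 in 697. Against these, ETV5, also named after its values were seen, was lower in REH (240 and 409 CPM, log2 ratio -0.77, -0.80 to -0.73). It had the highest level of the list per kb in both libraries (58.9 and 100 CPM per kb). At a log2 ratio of 1, 2 of the 10 were higher in 697 (20%, against 17.4% of all genes). In REH 4 were higher (40%, against 22.4%). The 2 were EGR1 (41 and 93 reads, -1.62, -2.19 to -1.08) and PHLDA1 (59 and 134 reads, -1.62, -2.09 to -1.18). FOS (-0.76) and IER3 (-0.73) were also lower in REH, so that 5 of the 10 ratios lay below 0 and 5 above. EGR1, PHLDA1, FOS and IER3 too are named after their values were seen.

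**Figure D4:**
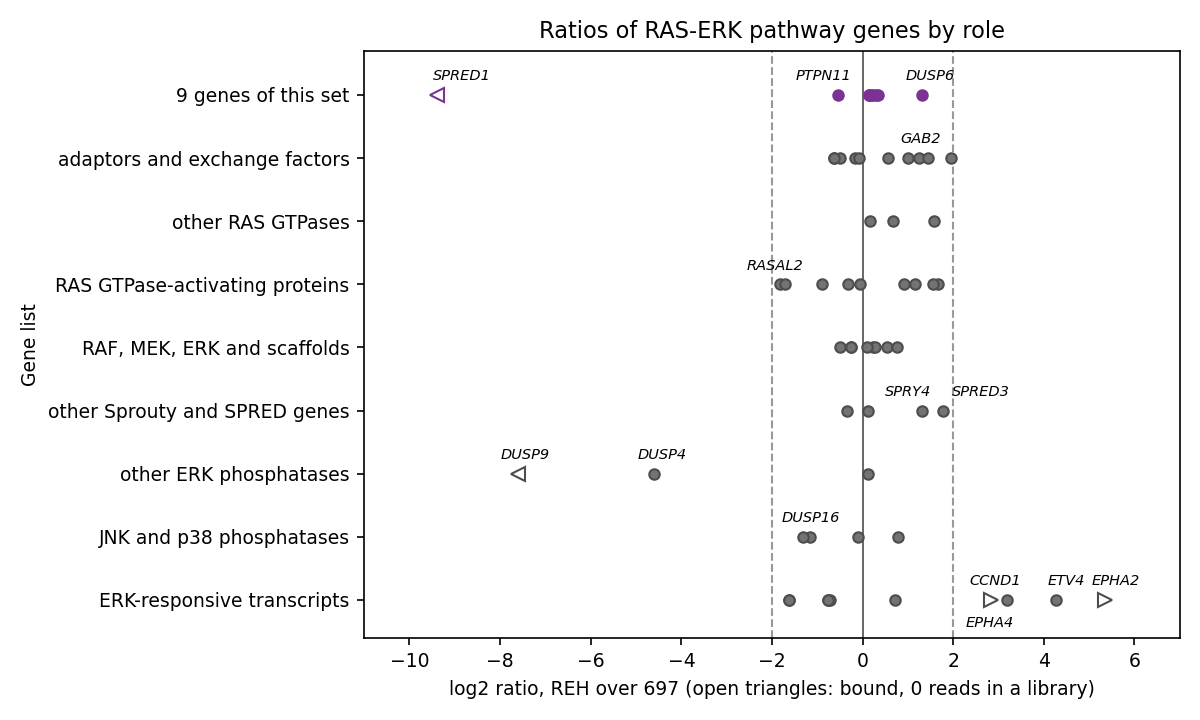
Log2 ratio (REH over 697) of each compared gene, with a line for each list, dashed lines at the threshold of 2 in size and open triangles for bounds of genes with 0 reads in a library. The 9 genes in the top line cluster near 0 except DUSP6 (1.31), PTPN11 (-0.55) and SPRED1 (-9.40 or below), and genes past the threshold appear only among the SPRED, ERK phosphatase and ERK-responsive genes of these lists.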

How the data were processed

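The deposited values are raw read counts per gene, neither normalized nor filtered by the authors, who aligned reads with STAR. The study's methods name hg38, whereas the submitters' processing notes name hg19, and the annotation release is not given in the sources used here. The methods describe poly(A) selection and the labels ribodepleted, stranded libraries. Reads were split evenly over the strands, so the deposited count column of both strands was used. Reads mapped to several places (10.8% in REH, 15.4% in 697) are in no gene count.

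The 9 genes and the pathway lists were chosen with earlier results of these data known. Symbols, positions and lengths came from GENCODE 44 (GRCh38), matched by gene ID for 51996 of 57773 IDs. Genes entered the comparison if a library held at least 10 of their reads. Counts were scaled by TMM (edgeR 4.0.16, R 4.3.3), with factors of 1.11 for REH and 0.899 for 697. Log2 ratios used 0.5 added reads, and a gene with 0 reads in a library was given as a bound at 3 reads. A further pathway gene is not reported here. The scaling and ratios were first tested on simulated data. Besides the members and all Sprouty, SPRED and ERK phosphatase genes, genes past the threshold with at least 100 reads were named, or the gene with the largest ratio of a list. As alternatives, totals without TMM, TMM factors of protein-coding genes and size factors of DESeq2 1.42.0 were used, as well as 5 added reads, minima of 1 and 50 reads, a log2 threshold of 1 and each strand column. Figures were drawn in Python 3.11.15 with matplotlib 3.10.9.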

Additional observations from a re-analysis of the deposited data

How the results depend on the processing

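With 1 library per line, no replicate could be left out and no paired analysis was possible because REH and 697 are represented by 1 sample each. DESeq2 size factors, TMM from protein-coding genes and 5 added reads left each member's log2 ratio that could be computed within its counting interval. Unscaled totals moved 8 of 9 members out of it, without a change of sign. At a log2 threshold of 1, the numbers higher in REH and in 697 became 13 (25.5%) and 8 (15.7%) for the pathway genes. For all genes they became 4293 (22.4%) and 3336 (17.4%), so the pathway shares lay near these. The number higher in REH became 1 for the 9 genes (11.1%). Of the 11 compared Sprouty, SPRED and ERK phosphatase genes, 0 were higher in REH past the threshold of 2 (12.5% of all genes). In 697, 3 of them were higher (27.3%, against 8.15% of all genes). At a threshold of 1, 3 were higher in each direction (27.3% each, against 22.4% and 17.4% of all genes). Their number higher in REH past the threshold of 2 was 1, from 0, with unscaled totals and with reads on the opposite strand. A minimum of 1 read gave 4410 genes higher in 697 of 31276 compared, and a minimum of 50 reads gave 1477 higher in REH and 1036 in 697 of 14612 compared. Among all genes past the threshold of 2, 60.6% were higher in REH, against 44.9% with a minimum of 1 read. At that minimum, 0 reads in REH and 1 read in 697 were enough to pass, at a log2 ratio of -2.03. The lower share therefore includes genes with next to no reads. On the strand of the gene alone, SPRY1 turned to -0.06, against 0.41 on the opposite strand. The length of all annotated exons was an alternative chosen after seeing the data. Depth limits SPRED1 in REH and DUSP9 to bounds, which each strand column lowers because it holds fewer reads.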

Other observations

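Within the span of NF1, EVI2A, EVI2B and OMG are annotated on the opposite strand, and 360 bases of EVI2A exon are shared with exons of NF1. EVI2A, a gene of the blood lineage, had 1473 reads in REH and 1383 in 697, a log2 ratio of -0.35 (-0.46 to -0.25), against 0.22 for NF1. EVI2B had 1922 and 1366 reads (0.05, -0.05 to 0.15). OMG, which encodes a myelin glycoprotein, had 130 and 56 reads (0.76, 0.31 to 1.25).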
